A study of Saccharomyces cerevisiae with 72 samples.

Results

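The 10 genes described here, RAD1, RAD2, RAD3, RAD4, RAD7, RAD10, RAD14, RAD16, RAD23 and SSL2, encode core factors of nucleotide excision repair in budding yeast. They were chosen by symbol, with earlier results of these data known. All 10 were measured in both tables, among 5594 genes in one and 5592 genes in the other. Each of 72 Agilent arrays carried RNA of one strain exposed for 1 h to methyl methanesulfonate (MMS, which methylates DNA bases) beside RNA of untreated cells of that strain, in opposite dyes, so that, by the labels, each value is a ratio within a strain. All 18 strains were derived from BY4741, a laboratory strain, and each had 2 replicates of 2 dye-swapped arrays.

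The first 13 strains, called the kinase set, were profiled from poly(A)-enriched RNA. The RAD53-lacking strains were rad53, chk1rad53 and dun1rad53. The MEC1-lacking strains were mec1 and tel1mec1. The DUN1-lacking strains with RAD53 in place were dun1 and chk1dun1. The crt1 strain lacks the repressor of the ribonucleotide reductase genes. The strains sml1, tel1, chk1, ste11 and wild type are called intact here, because MEC1, RAD53, DUN1 and CRT1 were all present in them. Mec1 and Tel1 are kinases that sense DNA damage, Rad53 and Chk1 are kinases that they activate, and Dun1 acts after Rad53. Sml1 is an inhibitor of ribonucleotide reductase, and Ste11 is a mating-signal kinase. The labels do not say whether strains without MEC1 or RAD53 also lacked SML1. Differences of those strains may therefore include a further deletion. The factor set, from total RNA on another array design, held hap1, hap4, sut1, rcs1 (without AFT1) and yap7, each lacking a transcription factor, and no wild type. The texts gave the MMS dose as 0.03% in the growth description of both sets, and as 0.033% in the treatment description of the kinase set.

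Nucleotide excision repair cuts a short piece of damaged strand out of DNA and is best known for removing ultraviolet photoproducts and other bulky lesions. Rad4 with Rad23 recognises the distorted helix, and Rad7 with Rad16 and Abf1 serves the parts of the genome that are not being transcribed. Rad14 helps to verify the lesion, and the helicases Rad3 and Ssl2, both subunits of the transcription factor TFIIH, open the helix. Rad2 cuts on the 3′ side and Rad1 with Rad10 on the 5′ side, after which DNA polymerase and ligase fill and seal the gap. The methylated bases that MMS makes are handled mainly by base excision repair, which starts with the glycosylase Mag1.

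Across genes, the 2 replicates of a strain correlated at r = 0.776 to 0.948 (kinase set) and r = 0.902 to 0.937 (factor set). The number of arrays limited the precision. The median half-width of a 95% interval over all genes was 0.197 for a response in the kinase set, 0.279 for a difference from wild type and 0.158 for a difference of pooled strains. On 1 array the DUN1 and MEC1 ratios went against the label. For dun1 replicate 2, the array that should carry MMS in Cy5 had a DUN1 ratio of 2.71, against -0.24 to -0.11 on the other 3 arrays of that strain. Its MEC1 ratio was -2.34, against -0.54 to -0.21, and its RAD53 ratio -0.19, against 0.44 to 0.55. These ratios differ from what 2 channels of the same dun1 strain would give, and the array enters the dun1 and DUN1-lacking means. Without it, the mec1 replicate 1 array with MMS in Cy5 and the chk1rad53 replicate 1 array with MMS in Cy3, the 4 members called in dun1 (RAD2, RAD16, RAD23 and SSL2) kept their calls in limma, with RAD16 at 0.45; each affected replicate then rests on 1 dye. CHK1 ratios also lay away from 0 in strains without CHK1. With MMS in Cy3 they were -1.34 and -0.70 in chk1, against 0.27 and 0.18 with MMS in Cy5. With MMS in Cy3 they were -0.79 and -0.34 in chk1rad53 and -0.52 and -0.29 in chk1dun1. The cause was not tested. The labels do not say whether replicates were separate cultures, so p-values reflect only how far these samples spread, which may be technical.

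Values are given as log2 ratios, MMS over untreated (base 2 is assumed), and "called" means a Benjamini-Hochberg adjusted p under 0.05 in limma over all genes. In wild type, 6 of the 10 genes were called higher after MMS and 0 lower. Over all genes, 26.8% were called higher and 25.4% lower in wild type. The median response of the 10 genes was 0.27, against 0.00 over all genes. RAD16, RAD23 and SSL2 had the 3 highest responses of the 10. RAD2, RAD7 and RAD4 followed with smaller ones. RAD14, RAD1, RAD3 and RAD10 did not pass the test. A ratio of treated to untreated RNA gives no level in either channel, and a smaller ratio does not separate a higher untreated level from a lower treated one.

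RAD16 (YBR114W) encodes the ATPase of the Rad7-Rad16 complex. In wild type its 2 replicates gave 0.80 and 0.87, a mean of 0.84 ± 0.05 (SD, n = 2; SE of the fit 0.09; limma adjusted p = 1.97e-07). All 4 intact deletion strains were close to that. The replicates gave 1.03 and 0.85 in chk1, 0.96 and 0.82 in ste11, 0.77 and 0.95 in tel1, and 0.65 and 0.89 in sml1. None of these 4 strains was called different from wild type for RAD16. Over all genes, 0 were called lower in each of the 4, and 0.0179% were called higher in chk1. The 95% interval of the difference from wild type ran from -0.15 to 0.36 for chk1, from -0.20 to 0.31 for ste11, from -0.23 to 0.28 for tel1 and from -0.32 to 0.19 for sml1.

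Without RAD53 the RAD16 ratio was near 0. The replicates gave 0.03 and -0.00 in rad53, 0.03 and 0.14 in chk1rad53, and -0.08 and -0.02 in dun1rad53. No replicate of these 3 strains reached the lowest value of the 5 intact strains. In the MEC1-lacking strains the replicates gave 0.37 and 0.31 in mec1 and 0.09 and 0.08 in tel1mec1. The DUN1-lacking strains lay between, with 0.63 and 0.25 in dun1 and 0.47 and 0.59 in chk1dun1. In crt1 the replicates gave 0.42 and 0.26. RAD16 was called higher after MMS in 9 of 13 strains, the exceptions being tel1mec1, rad53, chk1rad53 and dun1rad53.

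**Figure D1:**
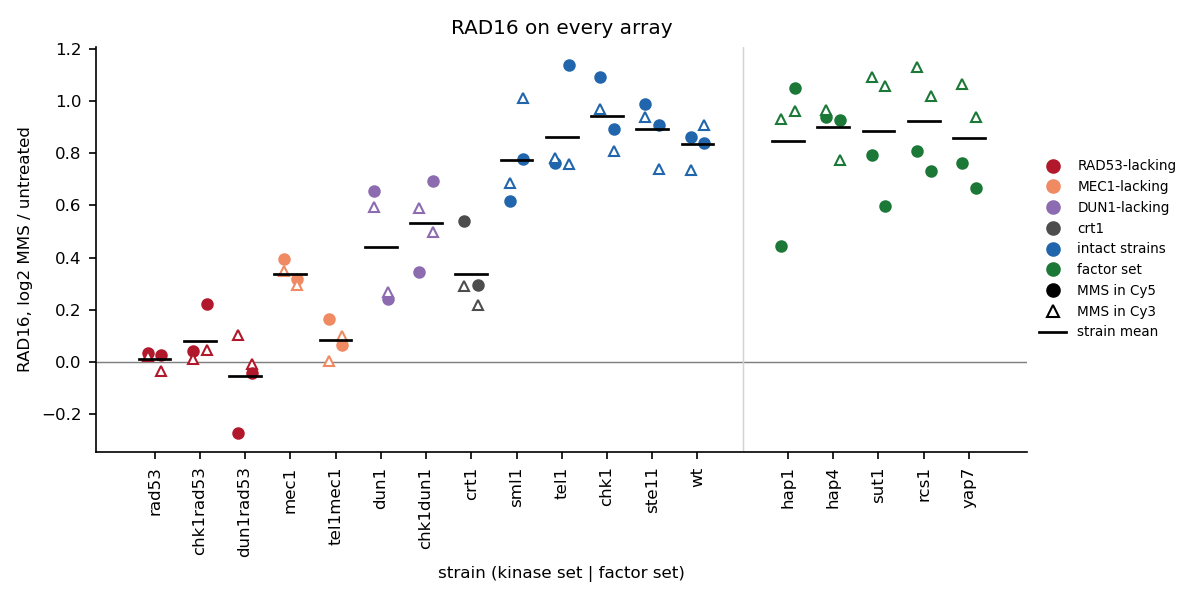
RAD16 on each of the 72 arrays, as log2 MMS over untreated (vertical axis) by strain (horizontal axis), with filled circles for MMS in Cy5, open triangles for MMS in Cy3 and a black line for the strain mean (n = 2 replicates). The means of the RAD53-lacking strains lie between -0.05 and 0.08, those of the intact strains between 0.77 and 0.94, and those of the factor set between 0.85 and 0.92.

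Ordered by mean, RAD16 ran from chk1 (0.94) over ste11 (0.89), tel1 (0.86), wild type (0.84) and sml1 (0.77) to chk1dun1 (0.53), dun1 (0.44), mec1 (0.34) and crt1 (0.34), and then to tel1mec1 (0.08), chk1rad53 (0.08), rad53 (0.01) and dun1rad53 (-0.05). Replicate values of neighbours in that order were apart at 3 places: between sml1 and chk1dun1, between crt1 and tel1mec1, and between rad53 and dun1rad53. Single arrays were apart between crt1 and tel1mec1 alone. The order was made from these same means, and each step sets 2 replicates against 2. The gaps themselves were not tested, and the share of all genes with such gaps is not given. Between rad53 and dun1rad53, 0 genes were called in limma.

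RAD16 was the only member called different from wild type in any deletion strain, with 5 calls among the 120 tests of 10 genes in 12 strains. The difference was -0.89 in dun1rad53 (limma adjusted p = 6.09e-05), -0.82 in rad53 (adjusted p = 0.000135), -0.75 in chk1rad53 (adjusted p = 0.000331) and -0.75 in tel1mec1 (adjusted p = 0.000271). Over all genes, 8.54% were called lower in dun1rad53, 10.9% in rad53, 7.72% in chk1rad53 and 7.85% in tel1mec1. In mec1 the difference was -0.50 (adjusted p = 0.0386), where 1.05% of genes were called lower. That mec1 call was lost without either mec1 replicate (adjusted p = 0.136 and 0.269) and without either wild-type replicate (adjusted p = 0.0901 and 0.219). It was also lost after scaling the arrays to one spread (-0.26, adjusted p = 0.626). These 12 comparisons share the wild-type arrays.

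The difference was -0.50 in crt1 (adjusted p = 0.138), -0.40 in dun1 (adjusted p = 0.161) and -0.31 in chk1dun1 (adjusted p = 0.355), and none of these passed the test. Over all genes, 0.25% were called lower than wild type in crt1, 0.536% in dun1 and 0.483% in chk1dun1. The crt1 difference passed with single arrays and the replicate as random block (adjusted p = 0.000791) or the slide as random block (adjusted p = 0.00174). Those fits take dye-swapped arrays as separate units, with estimated consensus correlations of -0.256 and -0.137. The dun1 difference passed with the replicate as random block (adjusted p = 0.0119) and without dun1 replicate 1 (-0.58, adjusted p = 0.03). In that last fit dun1 is represented by replicate 2 alone, which holds the array against its label and is assumed to vary like the other strains. Without that array and the 2 others named above, the difference was -0.39 (adjusted p = 0.103). The array gave 0.24 for RAD16, and its dye-swapped partner gave 0.27. On the slides that held wild type beside another strain, the RAD16 difference was -0.84 for tel1mec1 and -0.65 for dun1, and -0.06 and 0.10 for sml1 on 2 slides. Each of these within-slide values rests on 1 wild-type array, and the tel1mec1 value compares arrays of opposite dye. The dun1 value averages 2 arrays against a wild-type array with MMS in Cy3. It includes the array against its label, which is also of opposite dye to that wild-type array. The other deletion strains shared no slide with wild type. All arrays of chk1 lay on a single slide without other strains, and so did those of chk1rad53 and of chk1dun1. For these strains, strain and slide cannot be told apart, and their replicates do not span slides.

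Setting each double deletion against its single deletions gave 4 calls among 80 tests of the 10 genes. RAD16 was lower in chk1rad53 than in chk1 (-0.86, adjusted p = 9.14e-05), in tel1mec1 than in tel1 (-0.78, adjusted p = 0.000235) and in dun1rad53 than in dun1 (-0.49, adjusted p = 0.034). The share of all genes called lower was 7.26% in chk1rad53 minus chk1, 6.63% in tel1mec1 minus tel1 and 1.84% in dun1rad53 minus dun1. The dun1rad53 call was lost without dun1 replicate 1 (-0.31, adjusted p = 0.292) and without either dun1rad53 replicate (adjusted p = 0.308 and 0.174). Adding chk1 or dun1 to rad53 changed no gene at the threshold, with RAD16 differences of 0.07 (95% interval -0.18 to 0.32) and -0.07 (-0.32 to 0.19). Adding chk1 to dun1 also changed no gene at the threshold, with a RAD16 difference of 0.09 (-0.16 to 0.34). Without adjustment, 322, 136 and 181 genes but 0 of the 10 members had a limma p under 0.05 in those 3 contrasts. In tel1mec1 minus mec1 the RAD16 difference was -0.25 (interval -0.51 to -0.00, adjusted p = 0.357), and in chk1dun1 minus chk1 it was -0.41 (interval -0.66 to -0.16, adjusted p = 0.182). Neither passed the test, in contrasts where 1.72% and 0.715% of all genes were called lower.

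In an F-test over the 13 strains, RAD16 was the only member called (F = 18.2, limma adjusted p = 3.90e-06), against 21% of all genes. RAD7 had an adjusted p of 0.0556 and RAD23 of 0.160. The strain means of RAD16 spanned 0.995 between the lowest and the highest strain, more than in 94.1% of genes. The span was 0.511 for RAD23, 0.409 for RAD7 and 0.148 for RAD1, against a median of 0.403 over all genes. Over the 13 strain means, the 3 genes most like RAD16 were YPR015C (Pearson r = 0.966), FRD1 (r = 0.964) and RNR3 (r = 0.960). FRD1 encodes a fumarate reductase and RNR3 a subunit of ribonucleotide reductase. Among the members, r with RAD16 was 0.905 for RAD14, 0.736 for SSL2, 0.717 for RAD7 and -0.615 for RAD10. These are descriptions over 13 means of 2 replicates each, in which genes share arrays, dyes and normalization.

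RAD7 (YJR052W) encodes the partner of Rad16 in the complex. In wild type the replicates gave 0.16 and 0.41, with single arrays from -0.35 to 0.68, and the mean of 0.28 ± 0.17 (SD, n = 2) was called (SE 0.07, limma adjusted p = 0.00146). That call was lost without wild-type replicate 2 (0.16, adjusted p = 0.144) and with only the arrays that had MMS in Cy3 (0.01, adjusted p = 0.958). RAD7 gave 0.48 and 0.48 in tel1 and 0.39 and 0.44 in sml1. At the other end stood rad53 with 0.12 and 0.02, and chk1rad53 with 0.13 and 0.11. RAD7 was called higher in 8 of 13 strains.

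RAD16 exceeded RAD7 in 10 of 10 replicates of the intact strains, with a median gap of 0.52. The gap was present in 4 of 4 replicates of the DUN1-lacking strains (median 0.38), 2 of 4 of the MEC1-lacking strains (median -0.00) and 1 of 6 of the RAD53-lacking strains (median -0.10). The 2 genes of this complex thus had unequal ratios in the intact strains and gaps between -0.23 and 0.03 in the RAD53-lacking ones. The gaps compare ratios measured by different probes and were not tested.

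**Figure D2:**
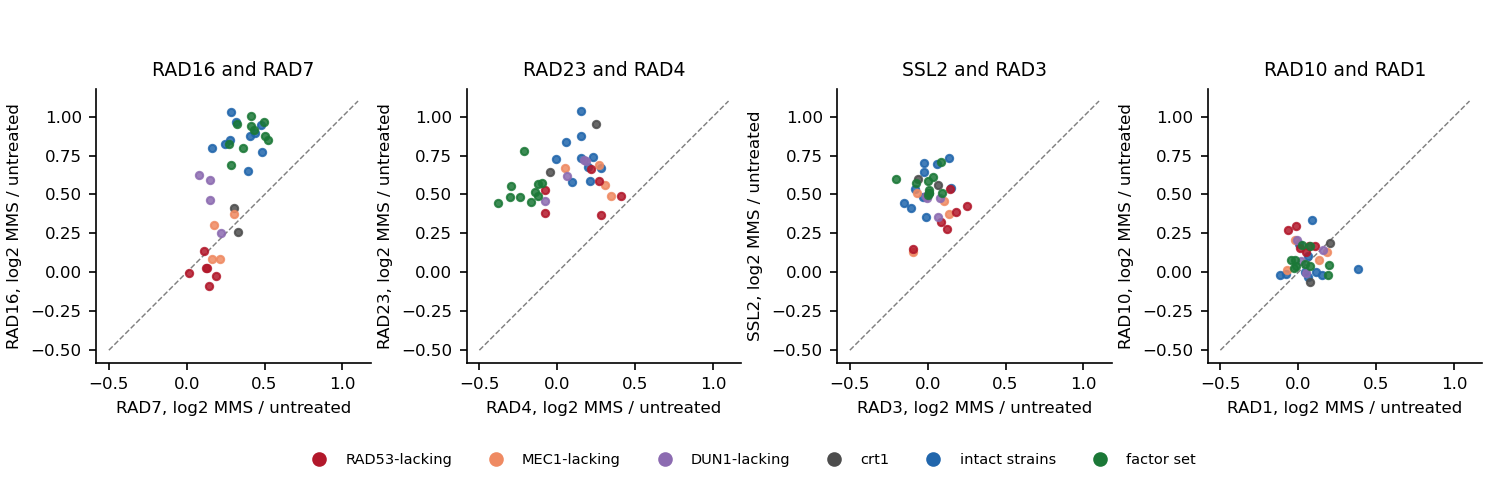
Each point is 1 replicate (mean of 2 dye-swapped arrays), with log2 MMS over untreated of one protein's gene against that of its partner, for RAD16 and RAD7, RAD23 and RAD4, SSL2 and RAD3, and RAD10 and RAD1; the dashed line marks equal ratios and colours mark strain groups. RAD23 lies above RAD4 and SSL2 above RAD3 in 26 of 26 replicates of the kinase set, whereas RAD16 meets the line in the RAD53-lacking strains and RAD10 and RAD1 cluster near 0.

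RAD23 (YEL037C) encodes a ubiquitin-like protein that binds Rad4 and also delivers proteins to the proteasome. Its wild-type replicates gave 0.59 and 0.67, a mean of 0.63 (SE 0.09, limma adjusted p = 1.03e-05). It was called higher in 13 of 13 strains and lay above 0 on 52 of 52 arrays, with replicates from 0.37 over a median of 0.67 to 1.04. In rad53 the replicates gave 0.58 and 0.53, in dun1rad53 0.67 and 0.49, in mec1 0.56 and 0.67, and in tel1mec1 0.69 and 0.49. The ranges in dun1rad53, mec1 and tel1mec1 overlapped that of wild type, and rad53 lay just below it. The lowest strain was chk1rad53, with 0.38 and 0.37, and the highest was chk1, with 1.04 and 0.74.

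RAD23 was called different from wild type in 0 of 12 strains, and the 95% interval of the difference ran from -0.33 to 0.19 in rad53 and from -0.27 to 0.25 in mec1. It was lower in chk1rad53 than in chk1 (-0.51, adjusted p = 0.0123). The call was lost without chk1 replicate 1 (-0.36, adjusted p = 0.166), without either chk1rad53 replicate (adjusted p = 0.0697 and 0.0633) and after scaling the arrays (-0.32, adjusted p = 0.24). The chk1rad53 arrays included the one with the smallest SD over genes in the kinase set, 0.197, against 0.333 to 0.703 on the other arrays. All chk1 arrays lay on a single slide and all chk1rad53 arrays on another, so strain and slide cannot be told apart in this contrast.

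RAD4 (YER162C) encodes the damage-binding partner of Rad23. Its wild-type replicates gave 0.21 and 0.28, a mean of 0.25 ± 0.05 (SD, n = 2) that was narrowly called (SE 0.10, limma adjusted p = 0.0491) and lost its call under 7 of 12 alternatives. Strain means in the kinase set ran from 0.05 in dun1 to 0.31 in tel1mec1 and dun1rad53, and calls were made in wild type, tel1mec1 and dun1rad53. RAD23 exceeded RAD4 in 26 of 26 replicates of the kinase set, by 0.08 to 0.89 with a median of 0.52.

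RAD14 (YMR201C) encodes the zinc-finger protein that binds damaged DNA. Its wild-type replicates gave 0.02 and 0.47, a mean of 0.24 that did not pass the test (adjusted p = 0.0549). It was called higher in sml1 (0.23 and 0.38) and in ste11 (0.43 and 0.14). Both calls were lost after scaling the arrays to one spread and with only the arrays that had MMS in Cy3. The sml1 call was also lost without either sml1 replicate. The ste11 call was also lost with MMS in Cy5 only and without ste11 replicate 1. In dun1rad53 the replicates gave -0.05 and 0.03. The wild-type replicates lay further apart than the lowest and highest strain means, which were -0.01 and 0.31.

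SSL2 (YIL143C) and RAD3 (YER171W) encode the 2 helicases of TFIIH, which transcription also needs. SSL2 gave 0.73 and 0.44 in wild type, a mean of 0.59 ± 0.21 (SD, n = 2; SE 0.10; limma adjusted p = 4.86e-05). It was called higher in 12 of 13 strains and lay above 0 on 50 of 52 arrays. The exception was chk1rad53, with replicates of 0.28 and 0.15. RAD3 gave 0.14 and -0.15 in wild type, a mean of -0.01 (adjusted p = 0.945), and lay above 0 on 32 of 52 arrays. It was called in dun1rad53 alone, with 0.25 and 0.18 (limma adjusted p = 0.0477). That call was lost in 7 of 12 alternatives, among them leaving out either dun1rad53 replicate (adjusted p = 0.35 and 0.175). SSL2 exceeded RAD3 in 26 of 26 replicates of the kinase set, by 0.16 to 0.73 with a median of 0.44, and in 10 of 10 of the factor set.

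RAD2 (YGR258C) encodes the nuclease that cuts 3′ of the lesion. Its wild-type replicates gave 0.35 and 0.36, a mean of 0.35 (SE 0.08, limma adjusted p = 0.00138). RAD2 lay above 0 on 51 of 52 arrays and was called in 11 of 13 strains. The exceptions were rad53, with 0.24 and 0.06, and dun1rad53, with 0.27 and 0.15. The highest strain was ste11, with 0.55 and 0.46.

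RAD1 (YPL022W) and RAD10 (YML095C) encode the 2 parts of the nuclease that cuts 5′ of the lesion. RAD1 gave 0.38 and -0.12 in wild type, a mean of 0.13 (adjusted p = 0.245), and was called in 0 of 13 strains, whose means ran from -0.01 to 0.14. RAD10 gave 0.02 and -0.02 in wild type, a mean of 0.00 (adjusted p = 0.999). It was called higher in rad53 (0.30 and 0.17) and in dun1rad53 (0.27 and 0.17). Both calls were lost without either replicate of the strain and with either dye orientation alone. RAD10 exceeded RAD1 in 15 of 26 replicates, and RAD2 exceeded RAD1 in 24 of 26.

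**Figure D3:**
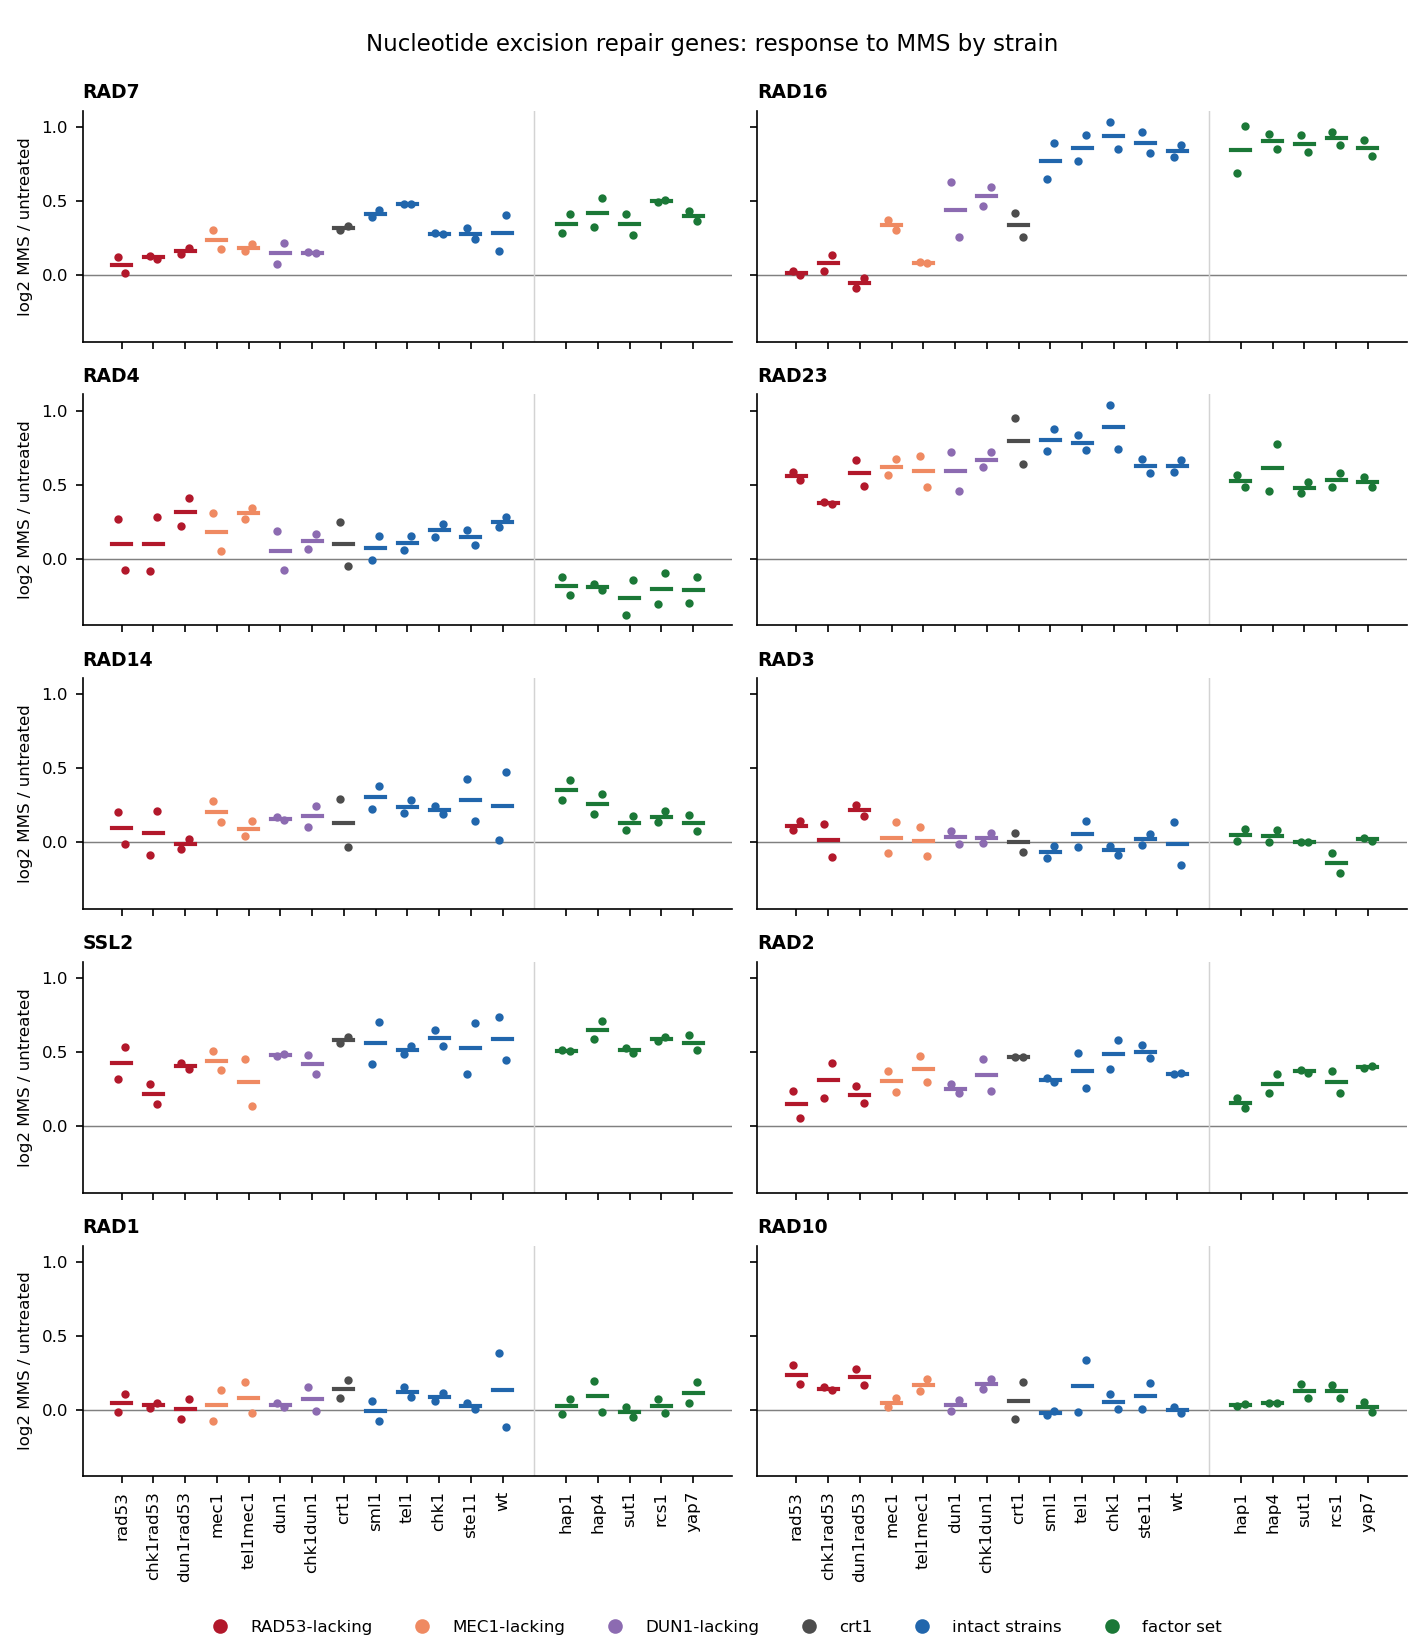
Log2 MMS over untreated of each of the 10 genes (1 panel each, ordered by role) in the 13 strains of the kinase set and, right of the grey line, the 5 strains of the factor set; points are the 2 replicates and bars their mean. RAD23 and SSL2 lie above 0 in all strains, RAD1 and RAD3 near 0 in nearly all, and RAD16 is lower in every RAD53-, MEC1- and DUN1-lacking strain than in the 5 intact ones.

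Over the 13 strains, 61 of 130 responses of the members were called higher (46.9%) and 0 lower, against 22.6% higher and 19.6% lower over all genes. The 130 responses count the same 10 genes in each of the 13 strains, and the calls were uneven between genes. RAD23, SSL2, RAD2, RAD16 and RAD7 were called in 13, 12, 11, 9 and 8 strains. RAD4, RAD10, RAD14, RAD3 and RAD1 were called in 3, 2, 2, 1 and 0. With only the arrays of one dye orientation, 38 of 130 were called higher with MMS in Cy5 (11.6% of all genes) and 35 of 130 with MMS in Cy3 (13.5% of all genes). Counts per strain ran from 2 of 10 in chk1rad53 and 3 of 10 in rad53 to 6 of 10 in sml1, ste11 and wild type. Among all genes the share called higher was 11.2% in chk1rad53, 19.1% in rad53, 19% in dun1rad53, 17.4% in tel1mec1 and 23.6% in mec1. It was 21.8% in dun1, 21.1% in chk1dun1 and 26.7% in crt1. In the intact strains it was 27% in sml1, 25.7% in tel1, 26.2% in chk1, 28% in ste11 and 26.8% in wild type.

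Pooling strains by genotype narrowed the intervals. Between the 3 RAD53-lacking strains and the 5 intact strains, 6 members were called lower and 1 higher, where 23.9% of all genes were called lower and 23.5% higher. The members' median difference was -0.19, against 0.01 over all genes. After scaling the arrays to one spread, 3 members were called lower (RAD7, RAD14 and RAD16) and 2 higher (RAD3 and RAD10), with a median of -0.05, where 22.8% of all genes were called lower and 23.1% higher. The pooled contrasts share the intact strains, and the strain groups were formed with earlier results of these data known. Their intervals and p-values reflect the spread of replicates within strains, not the spread between the strains of a group.

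RAD16 ran from -0.08 over a median of 0.01 to 0.14 in the RAD53-lacking replicates (n = 6), against 0.65, 0.86 and 1.03 in the intact ones (n = 10). The groups did not overlap, and the difference was -0.85 (95% interval -0.98 to -0.72, limma adjusted p = 2.34e-09). RAD7 ran from 0.02 over 0.13 to 0.19 without RAD53, against 0.16, 0.35 and 0.48 in the intact strains. Its groups overlapped slightly, with a difference of -0.23 (interval -0.33 to -0.13, adjusted p = 0.000702). RAD23 ran from 0.37 over 0.51 to 0.67 without RAD53, against 0.58, 0.73 and 1.04 in the intact strains, with a difference of -0.24 (interval -0.38 to -0.11, adjusted p = 0.0049). The RAD23 call was lost after scaling the arrays (-0.04, adjusted p = 0.736).

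SSL2 ran from 0.15 over 0.35 to 0.54 without RAD53, against 0.36, 0.54 and 0.73 in the intact strains (difference -0.20, adjusted p = 0.0226). RAD2 ran from 0.06 over 0.22 to 0.43 without RAD53, against 0.26, 0.37 and 0.58 in the intact strains (difference -0.18, adjusted p = 0.0178). RAD14 ran from -0.08 over 0.01 to 0.21 without RAD53, against 0.02, 0.24 and 0.47 in the intact strains (difference -0.21, adjusted p = 0.03). All 3 genes had overlapping groups. SSL2 and RAD2 lost their calls after scaling (-0.05, adjusted p = 0.577, and -0.09, adjusted p = 0.245), and over all alternatives the call held in 19, 21 and 17 of 26 for SSL2, RAD2 and RAD14.

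RAD10 differed in the opposite direction, running from 0.13 over 0.17 to 0.30 without RAD53, against -0.03, 0.00 and 0.33 in the intact strains. The difference of 0.14 was narrowly called (adjusted p = 0.0496) and held in 11 of 26 alternatives. RAD3 (0.12, adjusted p = 0.0957), RAD1 (-0.04) and RAD4 (0.02) were not called.

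In the MEC1-lacking strains RAD16 ran from 0.08 over 0.20 to 0.37 (n = 4), a difference of -0.65 from the intact strains (95% interval -0.80 to -0.50, limma adjusted p = 1.84e-06). It was the 1 member called there, where 12% of all genes were called lower. SSL2 (-0.19, adjusted p = 0.111) and RAD7 (-0.14, adjusted p = 0.0946) did not pass the test. In the DUN1-lacking strains RAD16 ran from 0.25 over 0.53 to 0.63 (n = 4), a difference of -0.37 (interval -0.52 to -0.23, adjusted p = 0.00316), and RAD7 differed by -0.20 (adjusted p = 0.0406), where 4.31% of genes were called lower. Both DUN1-lacking calls were lost after scaling, at -0.21 for RAD16 (limma adjusted p = 0.21) and -0.14 for RAD7 (adjusted p = 0.201). Over all genes, 2.02% were called lower in this contrast after scaling. The RAD7 call held in 8 of 24 alternatives. The RAD16 call was also lost without dun1 replicate 2 (-0.28, adjusted p = 0.0538), the replicate that holds the array against its label; without that array and the 2 others named above it was -0.37 (adjusted p = 0.00214). RAD16 alone of the 10 genes had replicates that did not overlap those of the intact strains in each of the 3 groups. Over all genes, replicates lay wholly below those of the intact strains for 9.08% without RAD53, 3.88% without MEC1, 2.56% without DUN1 and 0.93% in all 3 groups.

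**Figure D4:**
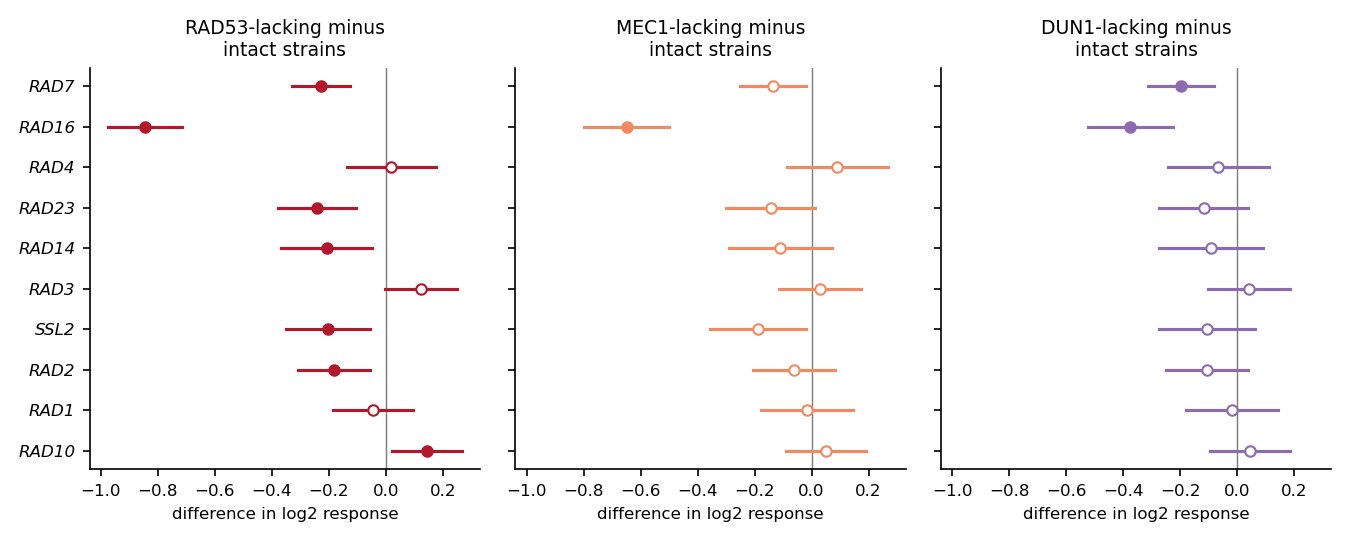
Difference in log2 response to MMS (horizontal axis) of each of the 10 genes between the RAD53-lacking, MEC1-lacking or DUN1-lacking strains and the 5 intact strains, with 95% intervals; filled points were called by limma at an adjusted p under 0.05. RAD16 lies at -0.85, -0.65 and -0.37 in the 3 panels, while the other members lie between -0.24 and 0.14.

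As a share of the mean response in the intact strains (0.86 for RAD16 and 0.75 for RAD23), RAD16 kept 1.54% in rad53, 9.53% in chk1rad53, 9.79% in tel1mec1, 39.3% in mec1, 39.1% in crt1, 51.1% in dun1 and 61.7% in chk1dun1, and -6.26% in dun1rad53. RAD23 kept 74.7% in rad53, 50.6% in chk1rad53, 78.9% in tel1mec1, 82.7% in mec1, 107% in crt1, 78.9% in dun1, 89.7% in chk1dun1 and 77.4% in dun1rad53. The median over 603 genes whose mean response in the intact strains was at least 0.5 was 40.4% in rad53, 41.8% in chk1rad53, 48.3% in tel1mec1, 84.8% in mec1, 99.8% in crt1, 76.2% in dun1, 75.2% in chk1dun1 and 43.8% in dun1rad53. RAD16 thus kept less than that median in all 8 strains. RAD23 kept more in 7 of them and slightly less in mec1. These shares have no test, and the 603 genes were selected on the denominator.

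In the factor set, RAD2, RAD7, RAD16, RAD23 and SSL2 were each called higher in 5 of 5 strains. Over 10 genes and 5 strains, 28 of 50 responses were called higher (56%) and 3 lower (6%), against 28.6% and 25.8% over all genes. By strain, 30.1% of all genes were called higher and 27% lower in hap1, 29.3% and 26.1% in hap4, 24.7% and 22.5% in sut1, 29.6% and 27.3% in rcs1, and 29.4% and 26.2% in yap7. RAD16 means ran from 0.85 in hap1 to 0.92 in rcs1, RAD23 means from 0.48 to 0.62, SSL2 means from 0.51 to 0.65 and RAD7 means from 0.34 to 0.50. RAD14 was called in hap1 (0.35), hap4 (0.26) and rcs1 (0.17). RAD2 in hap1, at 0.19 and 0.12, turned to -0.0272 (adjusted p = 0.804) with only the arrays that had MMS in Cy5. No member differed at the threshold between one factor strain and the other four in limma (0 of 50), where 2 members in hap1 and 1 in rcs1 had an unadjusted p under 0.05. Over all genes, 1.61% were called different in hap1, 2.38% in hap4, 0.268% in sut1, 0.268% in rcs1 and 0.0536% in yap7.

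RAD4 had opposite signs in the sets. In the factor set its replicates gave -0.38 and -0.15 in sut1, -0.30 and -0.13 in yap7, -0.30 and -0.10 in rcs1, -0.17 and -0.21 in hap4, and -0.13 and -0.24 in hap1. All 10 replicates were below 0, and calls were made in sut1 (-0.26), yap7 (-0.21) and rcs1 (-0.20). These calls were all lost with only the arrays that had MMS in Cy3. The sut1 and rcs1 calls were also lost without replicate 1 of the strain, and the yap7 call without either replicate. In rcs1, the replicate 1 array with MMS in Cy5 gave -0.516, against -0.111 to -0.0842 on the others. The share of all genes that change sign between the sets is not given. In the kinase set 21 of 26 RAD4 replicates were above 0. The sets differ in RNA preparation, array design and strains, which cannot be told apart here, and no test was made across them.

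Of the other subunits of TFIIH, 1 of 8 was called higher in wild type (KIN28, the kinase subunit, 0.27) and 1 lower (TFB1, -0.37), with a list median of 0.03. Without RAD53, 6 of the 8 were called higher than in the intact strains, led by CCL1 (0.27), TFB4 (0.26) and TFB3 (0.20), and TFB5 was called lower (-0.17), with a median difference of 0.17. After scaling the arrays 5 were called higher and 1 lower. After centring them, 6 were higher and 0 lower. Of all genes, 26.8% were called higher and 25.4% lower in wild type. Without RAD53 the shares of all genes were 23.5% higher and 23.9% lower, and after scaling 23.1% and 22.8%. SSL2, called lower without RAD53, and RAD3, at 0.12, also belong to TFIIH.

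Of 9 further factors of excision repair, 0 were called higher and 3 lower in wild type: ABF1 (-0.35), MET18 (-0.33) and RAD34 (-0.30). Of all genes, 26.8% were called higher and 25.4% lower there. Abf1 is a DNA-binding protein that works with Rad7 and Rad16, Met18 takes part in supplying iron-sulfur clusters, and Rad34 is related to Rad4. Without RAD53, 4 of the 9 were called higher than in the intact strains, among them ABF1 (0.25), MET18 (0.21) and RAD34 (0.19). Of all genes, 23.5% were called higher in that contrast. The wild-type calls and the 4 RAD53-lacking calls were the same in number after scaling and after centring.

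Of 17 genes that fill and seal the repair gap, 9 were called higher in wild type and 0 lower, with a median of 0.22. After scaling the arrays, 5 of the 17 were called higher, with a median of 0.16. The share of all genes called higher was 26.8% as reported and 20.3% after scaling. RFA2 (1.27) and RFA1 (1.02), subunits of the single-strand binding protein RPA, and POL30 (1.15), the sliding clamp, had the 3 highest values. Without RAD53, 9 were called lower, led by RFA2 (-1.01), POL30 (-0.94) and RFA1 (-0.83), and 3 higher: DPB4 (0.40), RFC1 (0.22) and RFC2 (0.16). The RAD16 difference of -0.85 lay within the range of these 3 lowest values. Of all genes, 23.9% were called lower without RAD53 and 23.5% higher.

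Of 12 genes of base excision repair and direct reversal, 10 were called higher in wild type and 0 lower, with a median of 0.31. MAG1 (1.20), NTG1 (0.62) and APN1 (0.58), which encode a glycosylase for methylated bases, another glycosylase and an endonuclease for abasic sites, led the list. Without RAD53, 5 were called lower, led by RAD27 (-0.60), MAG1 (-0.54) and OGG1 (-0.32), and 0 higher. After scaling, 3 were lower and 1 higher, against 22.8% and 23.1% of all genes. Of 16 homologous recombination genes measured, 6 were called higher in wild type and 1 lower, led by RAD54 (1.00), TOP3 (0.61) and RAD59 (0.53), with SGS1 at -0.37. Without RAD53, 5 were called lower, led by RAD54 (-0.96), TOP3 (-0.77) and RMI1 (-0.39), and 0 higher. Set beside these lists, 26.8% of all genes were called higher and 25.4% lower in wild type. In the RAD53-lacking contrast, 23.9% of all genes were called lower and 23.5% higher.

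**Figure D5:**
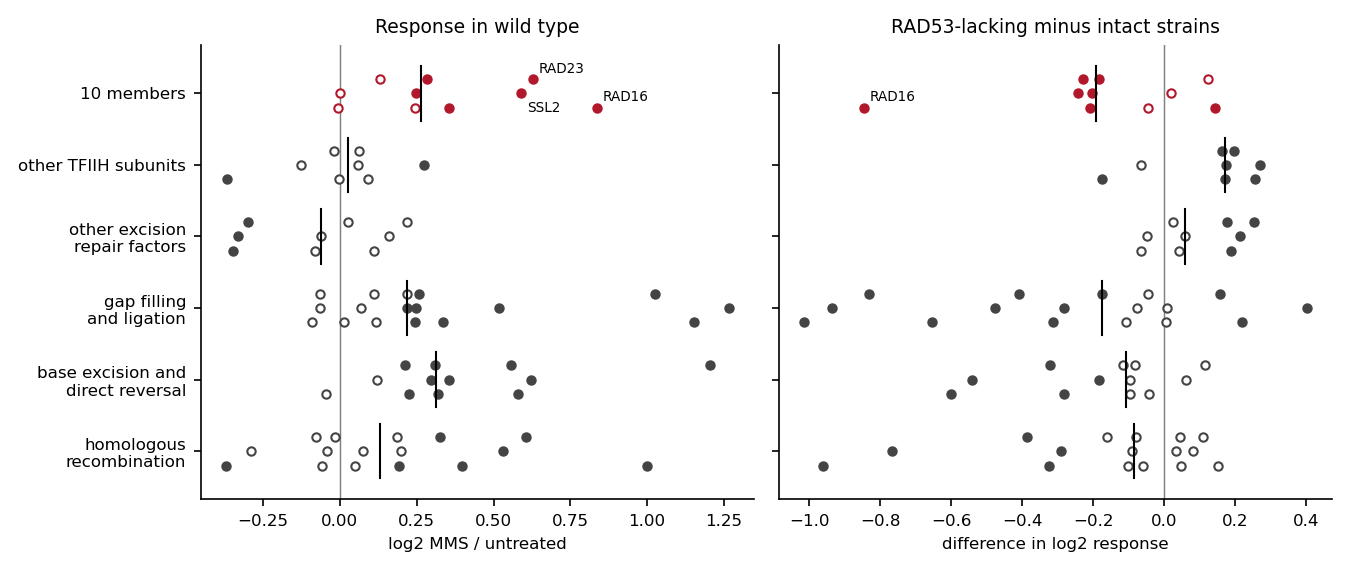
Wild-type response to MMS (left, log2 MMS over untreated) and difference between the RAD53-lacking and the intact strains (right, log2) for the 10 members and 5 lists of other repair genes; 1 point per gene, filled where called by limma, with a black line at each list's median. The list medians on the right are -0.19 for the members, 0.17 for the other TFIIH subunits, 0.06 for other excision repair factors, -0.18 for gap filling, -0.11 for base excision and -0.09 for homologous recombination.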

How the data were processed

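The values are the normalized log ratios (log2, Cy5 over Cy3) that the authors deposited, 1 per probe and array; per the submitters' processing notes they used limma, with no version given here. Base 2 is assumed, and base and centring are not stated. The dyes in the labels gave the direction, and the sign of arrays carrying MMS in Cy3 was turned. Before this, oppositely dyed arrays of a strain had r between -0.876 and -0.174 (kinase set) or between -0.847 and -0.633 (factor set) over probes.

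Symbols came from the platform annotation, updated through RefSeq: 5620 of 6269 probes in the kinase set and 5609 of 6256 in the factor set had 1 symbol, and probes of a gene were averaged. The 2 dye-swapped arrays of a replicate number were averaged (n = 2 per strain); whether they share RNA extracts is not given. One mean per strain was fitted per table with limma 3.58.1 in R 4.3.3 (statmod 1.5.0 for random blocks), with 13 and 5 residual degrees of freedom, and p-values were adjusted over all genes per contrast. The fit was tested on simulated data. All 10 members are named. Of other lists, up to 3 highest and 3 lowest called genes of the wild-type response and the RAD53-lacking contrast are named, and for RAD16 the 3 genes with the highest r. Members, lists and strain groups were chosen with earlier results of these data known. Alternatives changed scaling, centring, dye orientation, blocks, arrays and replicates.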

Additional observations from a re-analysis of the deposited data

Results flagged for a closer look

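Within a strain, 1 array lay far from the other 3 in 11 of 180 sets of 4 arrays (10 genes in 18 strains), where chance gives about 1 in 20. The criterion was a gap to the nearest array, as a share of the whole range, above Dixon's critical value at 95%. On the mec1 replicate 1 array with MMS in Cy5, RAD2 was 0.511 (others 0.231 to 0.236), RAD7 was 0.485 (others 0.124 to 0.18) and RAD14 was 0.4 (others 0.134 to 0.153). RAD16 was 1.14 on the tel1 replicate 2 array with MMS in Cy5 (others 0.758 to 0.782) and 0.224 on the chk1rad53 replicate 2 array with MMS in Cy5 (others 0.0139 to 0.0482). RAD1 was -0.485 on the wild-type replicate 2 array with MMS in Cy5 (others 0.248 to 0.394). RAD4 was -0.0219 on the dun1rad53 replicate 1 array with MMS in Cy5 (others 0.391 to 0.46) and -0.516 on the rcs1 replicate 1 array with MMS in Cy5 (others -0.111 to -0.0842). RAD23 was 0.597 on the tel1 replicate 2 array with MMS in Cy3 (others 0.833 to 0.867). SSL2 was 1.09 on the ste11 replicate 2 array with MMS in Cy5 (others 0.295 to 0.392). RAD2 was 0.0775 on the hap4 replicate 1 array with MMS in Cy3 (others 0.347 to 0.365).

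The response to MMS differed between strains by limma's test of the difference itself in these cases. RAD16 differed from wild type by -0.497 in mec1, -0.752 in tel1mec1, -0.823 in rad53, -0.754 in chk1rad53 and -0.89 in dun1rad53. Between double and single deletions, RAD16 differed by -0.776 for tel1mec1 minus tel1, -0.859 for chk1rad53 minus chk1 and -0.494 for dun1rad53 minus dun1, and RAD23 by -0.511 for chk1rad53 minus chk1. Between RAD53-lacking and intact strains the differences were -0.846 for RAD16, -0.242 for RAD23, -0.229 for RAD7, -0.208 for RAD14, -0.204 for SSL2, -0.182 for RAD2 and 0.144 for RAD10. RAD16 differed by -0.649 between MEC1-lacking and intact strains. Between DUN1-lacking and intact strains, RAD16 differed by -0.375 and RAD7 by -0.198.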

How the results depend on the processing

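Counts of called members are given first as reported. For most alternatives here and below, the share of all genes called under the same fit is not given. A change in a count can therefore not be read as particular to the members. In wild type 6 were called, and 5 to 6 without either replicate. Over the 13 responses 61 were called, 38 with only the arrays with MMS in Cy5, 35 with only those with MMS in Cy3 and 55 to 63 when any replicate was left out. Differences from wild type numbered 5, 8 with single arrays and the replicate as random block, and 4 to 6 without a replicate. That random-block fit takes dye-swapped arrays as separate units, with an estimated consensus correlation of -0.256. The 10 calls of the pooled contrasts became 6 after scaling the arrays, 4 with MMS in Cy5 only, 5 with MMS in Cy3 only, and 6 to 11 without a replicate, the 6 without chk1rad53 replicate 1 and without dun1rad53 replicate 2. The 4 calls between double and single deletions became 2 with either dye orientation alone and 3 to 5 without a replicate. The F-test called 1 member, and 2 with the replicate or the slide as random block or without 3 single arrays, and 1 to 2 without a replicate, with 2 when either wild-type replicate was left out. In the factor set 31 responses became 26 to 31 without a replicate, and 0 differences between strains were called under each alternative. The RAD2 response in hap1 turned to -0.0272 with MMS in Cy5 only, against 0.16 as reported; the cause was not tested.

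RAD16 kept its call in 12 of 12 alternatives in wild type, in 14 of 14 for each of tel1mec1, rad53, chk1rad53 and dun1rad53 against wild type, in 26 of 26 for the RAD53-lacking contrast (-0.88 to -0.73) and in 24 of 24 for the MEC1-lacking one (-0.67 to -0.50). RAD23 and SSL2 kept theirs in 12 of 12 in wild type. Single values were followed only where called as reported, plus RAD16 against wild type in crt1, dun1 and chk1dun1. Of their alternatives, 1260 kept direction and side of the threshold, 199 lost a call, 4 gained one and 1 changed sign. Gains could arise only in those uncalled RAD16 differences, so they cannot be weighed against the losses.

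Replicate numbers were not treated as pairs across strains. In the kinase set, deviations from strain means correlated with r from -0.462 to 0.428 over 78 pairs of strains (median -0.0202, 18 above 0.1). In the factor set r ran from -0.403 to 0.149 over 10 pairs (2 above 0.1). The sign varied between pairs, but some strains shared deviations, while the main fit takes all replicates as independent. With the replicate number as a fixed term (replicate block), counts were 5 in wild type, 60 responses, 4 differences from wild type, 9 pooled, 4 between deletions, 1 in the F-test, 30 responses in the factor set and 0 differences there; the RAD16 difference of mec1 from wild type had an adjusted p of 0.0516.

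With 2 replicates a strain, a difference from wild type below about 0.279 lay within the median 95% half-width.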

Other observations

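SSL2 depended on the dye in the factor set, with a mean of 0.310 over the 10 arrays with MMS in Cy5 and 0.819 over the 10 with MMS in Cy3, a gap larger than in 97.9% of genes. RAD1 averaged -0.0636 over 26 kinase-set arrays with MMS in Cy5 and 0.186 over 26 with MMS in Cy3, a gap larger than in 89.8% of genes. Averaging the dye-swapped arrays cancels a constant dye effect.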
